A study of Mus musculus with 8 samples.

Results

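Caveolins, cavins and tetraspanins build membrane domains, and their transcripts were examined in EMT6 tumours treated with GrB-Fc-KS49, which the series title names as a human fusion of granzyme B against EMP2. The set held 10 genes of the 26709 in the deposited count table, chosen by gene name as membrane-domain proteins related to EMP2 function. Earlier results of these data were known when it was chosen. It comprised 2 caveolins (Cav1, Cav2), 3 cavins (Cavin1, Cavin2, Cavin3) and 5 tetraspanins (Cd9, Cd63, Cd81, Cd82, Cd151).

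RNA sequencing covered 4 tumours of wild-type, syngeneic Balb/c mice given GrB-Fc-KS49 and 4 tumours of such mice given IgG as the control. EMT6 is a mouse mammary carcinoma line, and both groups carried it; treatment was given 3 times within 10 days. The labels state no age, sex or dose, and do not say that each tumour came from a separate animal, so the p-values rest on the spread of these tumours, which may be technical. Replicate numbers only name the libraries, and the titles of GrB-Fc-KS49 replicate 3 and IgG control replicate 1 end in U, which the labels do not explain. In whole tumours, a change in the share of cells that express a gene and a change in RNA per cell cannot be told apart.

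Caveolae are small flask-shaped pits of the plasma membrane, shaped by caveolin scaffolds inserted in the membrane and by a coat of cavins on its inner face. They are abundant in endothelial cells, adipocytes, fibroblasts and muscle. Tetraspanins are small proteins that span the membrane several times and bind integrins, immunoglobulin-family proteins and each other, and several are carried on extracellular vesicles. EMP2 belongs to the PMP22 family, which has a similar layout, and has been linked to caveolin levels and integrin traffic.

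Total estimated counts were 74.6 to 80.9 M (1 M is 1000000) in GrB-Fc-KS49 libraries and 74.0 to 82.6 M in IgG control libraries. Levels below are CPM, the counts of a gene in 1 M counts, after scaling by trimmed mean of M-values (TMM). Every member had at least 2261 counts in every library and all 10 passed the filter on low counts. The treated tumours were not alike in the tissue they held. Summed markers of skeletal muscle reached 2419 CPM in GrB-Fc-KS49 replicate 1, keratinocyte markers 2184 CPM in replicate 2 and adipocyte markers 489 CPM in replicate 3, against at most 195, 16.5 and 90.3 CPM in any IgG control. The labels call the material epithelial breast tumour cells. Of 10 carcinoma epithelial markers, Krt8 was at 391 to 631 CPM in the GrB-Fc-KS49 tumours and 414 to 468 CPM in IgG controls, Epcam at 2.73 to 16.0 and 3.19 to 4.46 CPM, and Cldn3 and Cldn7 averaged under 1 CPM.

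None of the 10 members passed the test over all genes. The edgeR quasi-likelihood test with Benjamini-Hochberg adjustment over 19718 genes called 0 genes (0% of those tested) at an adjusted p under 0.05, so every difference below is a description of group means with an unadjusted p beside it. At an unadjusted p under 0.05 there were 6 members, with Cav1, Cav2 and Cavin2 lower and Cavin3, Cd63 and Cd81 higher in GrB-Fc-KS49 tumours. The same cutoff took 35.1% of all genes tested, 17.3% higher and 17.8% lower. Groups did not overlap in 4 members, with Cd63 and Cd81 higher and Cav1 and Cavin2 lower, against 25.7% of all genes, 10.3% higher and 15.3% lower. The median log2 fold change was -0.32 over the 5 caveolins and cavins and 0.15 over the 5 tetraspanins, against 0.03 over all genes tested. The first of these spans genes of both signs, Cavin1 (0.18) and Cavin3 (0.28) among them, and with the trends of transcript length and GC content removed the tetraspanin median was -0.09, against -0.06 over all genes. DESeq2, run as an alternative, gave an adjusted p under 0.05 for Cav1, Cavin2, Cavin3 and Cd63, and for 4708 genes in all, 23.9% of those tested. Without GrB-Fc-KS49 replicates 1 and 2 together, a choice made after the data were seen, 6 members were under 0.05, 3 higher and 3 lower, against 23.9% of all genes. Cavin1 was then among them (edgeR unadjusted p = 0.00973) and Cd81 was not (edgeR unadjusted p = 0.0963).

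**Figure D1:**
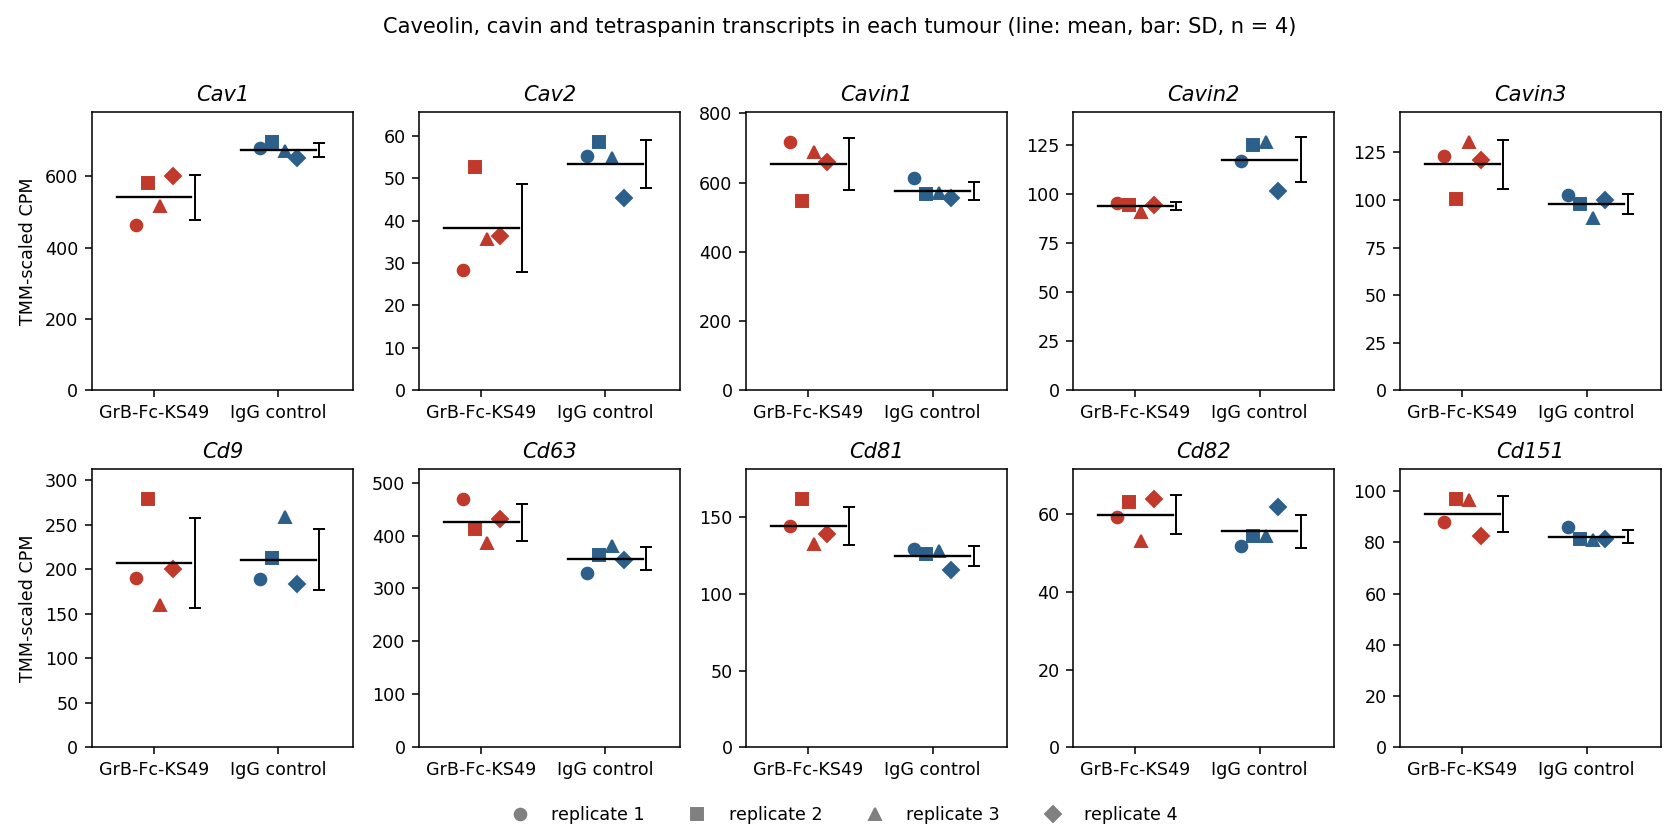
TMM-scaled CPM of the 10 members in each tumour, with GrB-Fc-KS49 in red and IgG control in blue; marker shapes give the replicate number, lines the mean and bars the SD (n = 4). The groups are separate for Cav1 and Cavin2, lower in GrB-Fc-KS49 tumours, and for Cd63 and Cd81, higher in them, and they overlap for the other 6 genes.

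The promoters of the caveolins and of the cavins Cavin1 and Cavin2 are shown because Cav1 and Cav2 are neighbours with lower means in treated tumours while the means of Cavin1 and Cavin2 differed in direction. They come from the RefSeq promoter table for GRCm38.p6, 250 bases before to 50 after the start, which matched 9 of the 10 members, Cavin3 being the one not matched. The first entry of each gene is given 5′ to 3′ on the gene's strand, with the searched motifs in capitals: the GC box GGGCGG, the CCAAT box CCAAT and the TATA box TATAAA, each sought on both strands. They lie at chr6:17306085-17306384 (plus strand, Cav1), chr6:17280935-17281234 (plus strand, Cav2), chr11:100970568-100970867 (minus strand, Cavin1) and chr1:51288876-51289175 (plus strand, Cavin2).
Cav1: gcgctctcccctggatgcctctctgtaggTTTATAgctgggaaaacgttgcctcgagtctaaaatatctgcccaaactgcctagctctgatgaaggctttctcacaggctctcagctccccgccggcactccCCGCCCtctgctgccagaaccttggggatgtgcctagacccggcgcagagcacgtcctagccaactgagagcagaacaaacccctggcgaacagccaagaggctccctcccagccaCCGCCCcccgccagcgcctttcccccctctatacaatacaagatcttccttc
Cav2: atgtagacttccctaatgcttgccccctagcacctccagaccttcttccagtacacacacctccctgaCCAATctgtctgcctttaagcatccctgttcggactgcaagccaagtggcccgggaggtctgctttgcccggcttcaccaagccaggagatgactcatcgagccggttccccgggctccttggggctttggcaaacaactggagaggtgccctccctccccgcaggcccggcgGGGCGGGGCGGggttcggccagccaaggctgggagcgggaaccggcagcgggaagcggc
Cavin1: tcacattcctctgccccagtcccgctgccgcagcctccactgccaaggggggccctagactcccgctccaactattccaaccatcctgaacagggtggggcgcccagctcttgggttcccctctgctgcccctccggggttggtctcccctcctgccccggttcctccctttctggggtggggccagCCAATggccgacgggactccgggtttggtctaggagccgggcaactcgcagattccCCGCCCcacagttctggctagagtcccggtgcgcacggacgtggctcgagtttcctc
Cavin2: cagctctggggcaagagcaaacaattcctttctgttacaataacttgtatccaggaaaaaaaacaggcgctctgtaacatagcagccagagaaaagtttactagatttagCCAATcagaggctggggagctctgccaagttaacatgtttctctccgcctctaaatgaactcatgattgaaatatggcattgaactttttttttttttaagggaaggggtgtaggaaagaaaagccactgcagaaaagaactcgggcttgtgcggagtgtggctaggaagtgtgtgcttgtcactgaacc

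The Cav1 window shown carries 2 GC boxes and 1 TATA box, each matched on the reverse strand. Its TATA match begins at base 30 of the window, well before the start. Another Cav1 entry holds none of these motifs. Cav2 carries 2 GC boxes that overlap by 1 base, and 1 CCAAT box. The Cavin1 window holds 1 GC box, on the reverse strand, and 1 CCAAT box, and that of Cavin2 1 CCAAT box and no GC box. Among 32851 promoters in the table the GC box was present in 35.7%, CCAAT in 37.4% and TATAAA in 13.6%. The Cavin2 window differs in composition from the other 3. It has a GC content of 43.3% and 4 CG dinucleotides, against 13 in Cav1, 16 in Cav2 and 17 in Cavin1, and a median of 7 over all promoters. These matches describe letters and not bound sites.

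Caveolin-1 is the main structural protein of caveolae. Cav1 (ENSMUSG00000007655, chromosome 6, 17306334 to 17341451, plus strand, GRCm39) was at 465, 581, 517 and 601 CPM in the GrB-Fc-KS49 replicates 1 to 4, against 679, 696, 671 and 650.2 CPM in IgG control replicates 1 to 4. Every treated tumour lay below every control, and the controls spanned a narrow range. The means were 541 ± 62.3 CPM in the GrB-Fc-KS49 tumours and 674 ± 18.9 CPM in the IgG controls (SD, n = 4 each), with a log2 fold change of -0.32, a standard error (SE) of 0.09 and a 95% interval of -0.52 to -0.11 (edgeR unadjusted p = 0.00681, adjusted p = 0.0644). Its unadjusted p was under 0.05 in all 22 alternatives to the analysis, with log2 fold changes from -0.37 to -0.25.

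Caveolin-2 is a partner that needs caveolin-1 to reach the cell surface. Cav2 (ENSMUSG00000000058, chromosome 6, 17281184 to 17289114, plus strand) ends 17219 bases before Cav1 on the same strand. It was at 28.3, 52.7, 35.6 and 36.4 CPM in the GrB-Fc-KS49 tumours, against 55.3, 58.5, 54.7 and 45.3 CPM in the IgG controls. GrB-Fc-KS49 replicate 2 stood within the control range and the other 3 treated tumours below it. The log2 fold change was the most negative of the members, -0.48 with an SE of 0.18 (edgeR unadjusted p = 0.0247, adjusted p = 0.0994). Without GrB-Fc-KS49 replicate 1, 3 or 4, or IgG control replicate 1 or 2, the unadjusted p was 0.0509, 0.0534, 0.0561, 0.0647 and 0.0613 in that order, and without GrB-Fc-KS49 replicate 1 the log2 fold change was -0.36. The unadjusted p was under 0.05 in 16 of the 22 alternatives.

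Cavin-1 is the coat protein required for caveolae to form. Cavin1 (ENSMUSG00000004044, chromosome 11, 100847559 to 100861713, minus strand) was at 717, 546, 689.6 and 659 CPM in the GrB-Fc-KS49 replicates 1 to 4, against 612, 566, 569 and 556 CPM in the IgG controls. All treated tumours but replicate 2 lay above the controls, and replicate 2 lay below all of them. The log2 fold change was 0.18 with an SE of 0.09 and a 95% interval of -0.03 to 0.39 (edgeR unadjusted p = 0.0837, adjusted p = 0.194). Without GrB-Fc-KS49 replicate 2, the tumour with the high keratinocyte markers, it was 0.27 (unadjusted p = 0.00586), and with length and GC trends removed it was 0.08 (unadjusted p = 0.47). The part of that tissue in the value was not tested.

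Cavin-2 binds phosphatidylserine and helps to curve the caveolar membrane. Cavin2 (ENSMUSG00000045954, chromosome 1, 51328285 to 51342119, plus strand) was at 95.5, 94.5, 91.1 and 94.5 CPM in the GrB-Fc-KS49 tumours, against 117, 125, 126.5 and 102 CPM in the IgG controls. The treated tumours lay close together and below every control. Cavin2 was the only member with a smaller coefficient of variation in GrB-Fc-KS49 tumours, 2.08% against 9.71% in IgG controls. The log2 fold change was -0.32 with an SE of 0.08 and a 95% interval of -0.51 to -0.14 (edgeR unadjusted p = 0.00296, adjusted p = 0.0619). As for Cav1, the unadjusted p stayed under 0.05 in all 22 alternatives, here with log2 fold changes from -0.37 to -0.26.

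Cavin-3 joins the coat through cavin-1 and is known as a binding partner of protein kinase C delta. Cavin3 (ENSMUSG00000037060, chromosome 7, 105129290 to 105131507, minus strand) was at 123, 100.3, 130.3 and 120.8 CPM in the GrB-Fc-KS49 tumours, against 103, 97.8, 90.7 and 99.9 CPM in the IgG controls. As with Cavin1, replicate 2 was the low treated tumour, here within the control range. The means were 119 ± 12.9 CPM in the GrB-Fc-KS49 tumours and 97.8 ± 5.14 CPM in the IgG controls (SD, n = 4 each). Cavin3 had a log2 fold change of 0.28 with an SE of 0.09 (edgeR unadjusted p = 0.0133, adjusted p = 0.0762).

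Cav2, Cavin1 and Cavin2 were also set against Cav1 within each library, which removes the scaling between libraries. These ratios were chosen with the fold changes of the genes known, so their p-values add no support to the values above. The Cavin1 to Cav1 ratio of counts was 1.54, 0.940, 1.33 and 1.10 in GrB-Fc-KS49 replicates 1 to 4, against 0.901, 0.814, 0.848 and 0.855 in the IgG controls. All treated ratios lay above all control ratios, and they ranged more widely. The log2 ratio averaged 0.27 ± 0.31 in GrB-Fc-KS49 tumours and -0.23 ± 0.06 in IgG controls, a difference of 0.50 (SD, n = 4 each; exact two-sided permutation p = 0.0286, the smallest that 70 splits allow, and 0.0858 adjusted over the 3 ratios tested). The Cavin2 to Cav1 log2 ratio averaged -2.52 ± 0.17 in GrB-Fc-KS49 tumours and -2.52 ± 0.11 in IgG controls (SD, n = 4 each; exact permutation p = 0.971). The Cav2 to Cav1 log2 ratio averaged -3.85 ± 0.27 in GrB-Fc-KS49 tumours and -3.66 ± 0.12 in IgG controls, with overlapping groups (SD, n = 4 each; exact permutation p = 0.229).

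**Figure D2:**
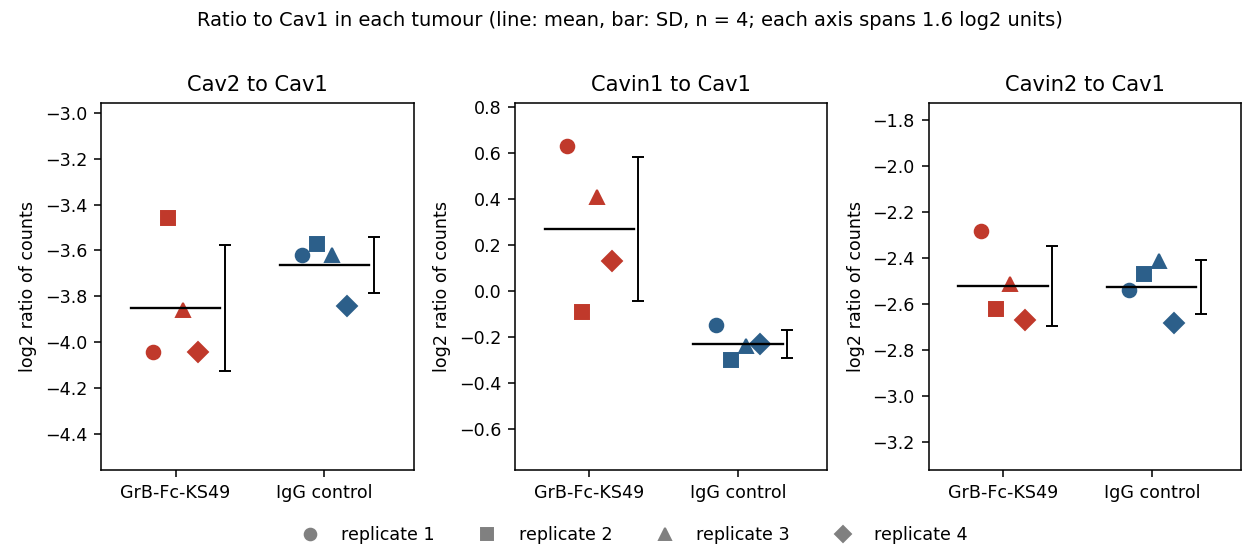
Log2 ratio of the counts of Cav2, Cavin1 and Cavin2 to those of Cav1 in each tumour, GrB-Fc-KS49 left and IgG control right; lines give the mean and bars the SD (n = 4), and each axis spans the same range of log2 units. The groups are separate for Cavin1 to Cav1, at 0.27 ± 0.31 against -0.23 ± 0.06, and overlap for the other ratios.

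Several cell types rich in caveolae could contribute these transcripts, so their markers are set beside them. Summed endothelial markers were at 228 to 354 CPM in the GrB-Fc-KS49 tumours and 169 to 317 CPM in IgG controls, with 3 of 10 higher and 0 lower at an unadjusted edgeR p under 0.05, against 17.3% and 17.8% of all genes. Fibroblast markers were at 3278 to 9259 CPM in the GrB-Fc-KS49 tumours and 4214 to 8217 CPM in the IgG controls, with 1 of 8 higher. Most of that sum was Col1a1 and Col3a1, which averaged 3421 and 1957 CPM in GrB-Fc-KS49 tumours and 3551 and 2413 CPM in IgG controls. Pericyte and smooth muscle markers, mostly Acta2 by level, were at 912 to 1567 CPM in the GrB-Fc-KS49 tumours and 1049 to 1345 CPM in the IgG controls, with 0 of 8 in either direction. Adipocyte markers, 3 of 10 higher, were at 68.6 to 489 CPM in the GrB-Fc-KS49 tumours and 47.9 to 90.3 CPM in IgG controls. Skeletal muscle markers, 10 of 10 higher, were at 41.2 to 2419 CPM in the GrB-Fc-KS49 tumours and 43.2 to 195 CPM in IgG controls. Without GrB-Fc-KS49 replicates 1 and 2, 0 of those 10 were higher at that cutoff, against 10.9% of all genes. In that setting 7 of 10 adipocyte, 3 of 10 endothelial, 1 of 8 pericyte and smooth muscle and 0 of 8 fibroblast markers were higher. None of these genes passed the adjusted test, and no list had all of its markers at or near 0. The part of these cells in the caveolin and cavin values was not tested.

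Of 11 caveolar accessory and related genes tested, 2 were higher and 2 lower at an unadjusted edgeR p under 0.05, close to the 17.3% and 17.8% of all genes, and 0 passed the adjusted test. Pacsin2, an F-BAR protein that bends membranes at caveolar necks, was at 117, 145, 137 and 142 CPM in the GrB-Fc-KS49 tumours, against 162, 170.3, 165 and 156.5 CPM in the IgG controls, with no overlap and a log2 fold change of -0.27 (edgeR unadjusted p = 0.00814). Its relative Pacsin3 had a log2 fold change of 0.32 (edgeR unadjusted p = 0.0211). With length and GC trends removed Pacsin2 was at -0.31 and Pacsin3 at 0.05 (unadjusted p = 0.631). Dnm2, the dynamin that cuts membrane necks, had a log2 fold change of -0.18 (edgeR unadjusted p = 0.0226). Plvap, which forms the diaphragms of endothelial caveolae and fenestrae, was at 84.6, 54.2, 75.4 and 54.1 CPM in the GrB-Fc-KS49 tumours, against 58.3, 47.5, 35.7 and 46.9 CPM in the IgG controls, with a log2 fold change of 0.51 (edgeR unadjusted p = 0.0256), or 0.22 with those trends removed (unadjusted p = 0.19). Cav3, the muscle caveolin, reached 3.22 CPM in GrB-Fc-KS49 replicate 1, the tumour with the high skeletal muscle markers, and lay at 0.0373 to 0.440 CPM in the other treated tumours, against 0.0264 to 0.435 CPM in IgG controls.

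Of the tetraspanins, Cd63 and Cd81 had separate groups, Cd151 and Cd82 had higher means with overlap, and Cd9 showed no difference in mean beyond its spread. CD63 is the tetraspanin of late endosomes and lysosomes and a marker of exosomes. Cd63 (ENSMUSG00000025351, chromosome 10, 128736858 to 128748691, plus strand) was at 469, 412.5, 386.5 and 431 CPM in the GrB-Fc-KS49 tumours, against 328, 363, 380.3 and 354 CPM in the IgG controls. GrB-Fc-KS49 replicate 3 was only just above IgG control replicate 3. The means were 425 ± 34.5 CPM in the GrB-Fc-KS49 tumours and 356 ± 21.6 CPM in the IgG controls (SD, n = 4 each), with a log2 fold change of 0.25 and an SE of 0.08 (edgeR unadjusted p = 0.0126, adjusted p = 0.0744).

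The table also holds Cd63-ps, a processed pseudogene on chromosome 18 named for Cd63, at 386, 325, 311 and 344 CPM in the GrB-Fc-KS49 tumours, against 265, 284, 305 and 279 CPM in the IgG controls. Its level was close to that of Cd63 itself, and the labels do not say how reads were divided between them. The value of Cd63 is therefore uncertain as a level. Both together were at 766 ± 66.9 CPM in the GrB-Fc-KS49 tumours and 639.6 ± 38.1 CPM in the IgG controls (SD, n = 4 each), and these groups did not overlap either. Cd9-ps averaged only 3.63 CPM in the GrB-Fc-KS49 tumours and 4.45 CPM in IgG controls.

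CD81 associates with immunoglobulin-family proteins and integrins in many cell types. Cd81 (ENSMUSG00000037706, chromosome 7, 142606476 to 142621671, plus strand) was at 144, 162, 132.5 and 139 CPM in the GrB-Fc-KS49 tumours, against 129, 126, 128 and 115 CPM in the IgG controls. All treated tumours lay above all controls, replicate 3 by a small margin. This gave a log2 fold change of 0.21 with an SE of 0.08 and a 95% interval of 0.03 to 0.39 (edgeR unadjusted p = 0.0258, adjusted p = 0.101). With GrB-Fc-KS49 replicate 2 left out the unadjusted p was 0.0505, and with IgG control replicate 2, 3 or 4 left out it was 0.0533, 0.0515 and 0.0621.

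CD151 holds laminin-binding integrins at the cell surface. Cd151 (ENSMUSG00000025510, chromosome 7, 141047305 to 141051386, plus strand) was at 88.0, 96.8, 96.6 and 82.4 CPM in the GrB-Fc-KS49 tumours, against 85.9, 81.1, 80.7 and 81.3 CPM in the IgG controls. Replicate 4 of the treated tumours lay below the highest control. Cd151 had a log2 fold change of 0.15 with an SE of 0.07 (edgeR unadjusted p = 0.0721, adjusted p = 0.176). It was 0.19 without that replicate (unadjusted p = 0.0232).

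CD82 is known as a suppressor of metastasis. Cd82 (ENSMUSG00000027215, chromosome 2, 93249456 to 93293485, minus strand) was at 59.3, 63.3, 53.1 and 63.9 CPM in the GrB-Fc-KS49 tumours, against 51.9, 54.5, 54.4 and 61.8 CPM in the IgG controls. The ranges overlapped over most of their width. Its log2 fold change was 0.11 with a 95% interval of -0.09 to 0.30 (edgeR unadjusted p = 0.247, adjusted p = 0.396).

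CD9 acts in cell fusion and adhesion and, like CD63 and CD81, marks extracellular vesicles. Cd9 (ENSMUSG00000030342, chromosome 6, 125437229 to 125471754, minus strand) was at 190.3, 279, 160.1 and 201 CPM in the GrB-Fc-KS49 tumours, against 188.5, 212, 258 and 183 CPM in the IgG controls. The highest and the lowest of the 8 values were both in treated tumours, replicates 2 and 3. The means of 207 ± 50.5 CPM in the GrB-Fc-KS49 tumours and 210.5 ± 34.3 CPM in the IgG controls (SD, n = 4 each) gave a log2 fold change of -0.02 with a 95% interval of -0.43 to 0.38 (edgeR adjusted p = 0.944). A difference within that interval was not detectable here. Replicate 2 was also the treated tumour with the highest keratinocyte markers, and without it the log2 fold change was -0.18 (edgeR unadjusted p = 0.231). It was 0.08 without GrB-Fc-KS49 replicate 3 and 0.09 without IgG control replicate 3 (edgeR unadjusted p = 0.637 and 0.648). The part of keratinocytes in the value was not tested.

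Among the members at an unadjusted p under 0.05, transcript length and GC content ran along with the direction of the difference. Cav1, Cav2 and Cavin2 have transcripts of 2733 to 3055 bases with 37.5% to 44.4% GC, while those of Cavin3, Cd63 and Cd81 have 1109 to 1662 bases and 49.6% to 56.4% GC. Of the other members, Cavin1 had the longest transcript of all (3491 bases, 57.3% GC) and a log2 fold change of 0.18. Cd9 (1228 bases, 45.9% GC) was at -0.02, Cd82 (1824 bases, 55.3% GC) at 0.11 and Cd151 (1865 bases, 54.4% GC) at 0.15. When each library's smooth trend with length and GC content was removed, the members at an unadjusted p under 0.05 were Cav1, Cav2 and Cavin2, with log2 fold changes of -0.35, -0.58 and -0.33 (edgeR unadjusted p = 0.00787, 0.0129 and 0.00484). The fold changes of Cavin3, Cd63 and Cd81 became 0.02, 0.05 and -0.02 (edgeR unadjusted p = 0.896, 0.51 and 0.85). After the removal the median over all genes was -0.06, against 0.03 without it, and 28.0% of genes were at p under 0.05, 9.29% higher and 18.7% lower. What gave rise to the trend was not tested.

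**Figure D3:**
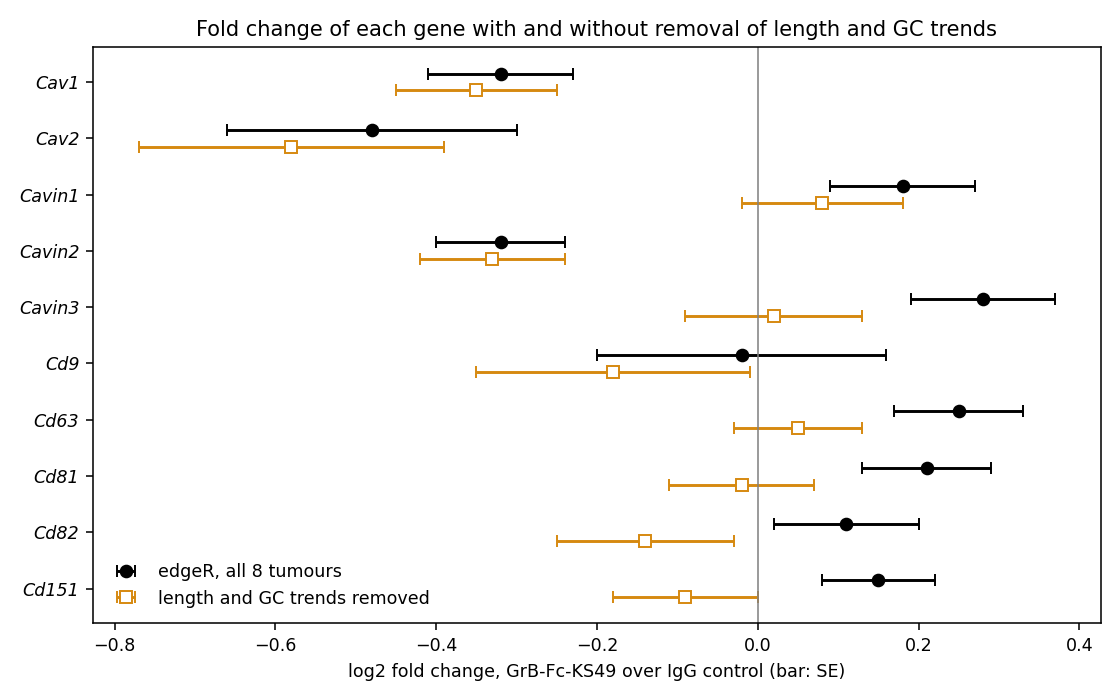
Log2 fold change of each member, GrB-Fc-KS49 over IgG control, from the edgeR fit (black circles) and with the trends of length and GC content taken out (open orange squares); bars are the SE. The fold changes of Cav1, Cav2 and Cavin2 stay below 0 after the removal, while that of Cavin3 moves to 0.02, that of Cd63 to 0.05 and that of Cd81 to -0.02.

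Markers of immune cells, which carry CD63, CD81 and other tetraspanins, were higher in some treated tumours. All 8 T cell markers were higher at an unadjusted edgeR p under 0.05, against 17.3% of all genes, and their sum was at 5.09 to 56.7 CPM in the GrB-Fc-KS49 tumours and 1.91 to 6.82 CPM in IgG controls. Of 8 macrophage markers 3 were higher, with sums of 1073 to 2366 CPM in the GrB-Fc-KS49 tumours and 872 to 1110 CPM in IgG controls. Mast cell markers summed to 18.7 to 73.7 CPM in the GrB-Fc-KS49 tumours and 17.0 to 23.7 CPM in IgG controls. Without GrB-Fc-KS49 replicates 1 and 2, 2 of 8 T cell markers and 3 of 8 macrophage markers were higher, against 10.9% of all genes. The median log2 fold change of macrophage markers was then -0.04, against 0.61 with all tumours. Of 6 cycling markers 1 was higher and 3 lower, against 17.3% and 17.8% of all genes. The part of these cells in the tetraspanin values was not tested.

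Members ranked by CPM per kilobase of transcript were led by Cd63, at 383 ± 31.1 in GrB-Fc-KS49 tumours and 321 ± 19.5 in IgG controls (SD, n = 4 each), with the doubt about its pseudogene. Cav1 followed, at 197 ± 22.7 in GrB-Fc-KS49 tumours and 245.5 ± 6.88 in IgG controls. In IgG controls the order then ran Cd9 (171.4), Cavin1 (165), Cd81 (81.3), Cavin3 (58.8), Cd151 (44.1), Cavin2 (38.5), Cd82 (30.5) and Cav2 (19.6). In GrB-Fc-KS49 tumours Cavin1 (187 ± 21.5) lay within the spread of Cav1, and Cd82 (32.8 ± 2.73) exceeded Cavin2 (30.7 ± 0.638) by less than its SD. Cd9 and Cavin1 did not differ beyond their spread in either group.

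The members fell into different patterns over the 8 libraries. Likeness was measured as the root mean square difference of log2 CPM centred on each gene's own mean, over 14811 genes with a mean of at least 1 CPM. Cavin1 and Cavin3 were the closest pair, at 0.076, Cd81 and Cd151 were at 0.102, and Cav2 and Cavin3 were farthest apart, at 0.517. The genes nearest Cav1, chosen by that measure, were Tmx4 (0.024), Pi4ka (0.026) and Atad1 (0.027), against a root mean square deviation of 0.194 for Cav1 itself. Cav2, its neighbour on the chromosome, ranked 5330th at 0.206, and Cavin2 2178th at 0.127. Nearest to Cd9 were Msmo1 (0.095), Rap1gap (0.097) and Sc5d (0.101), and Emp2 stood 50th at 0.134. These ranks describe 8 libraries that differ in tissue make-up, as the summed markers above show, and carry no test.

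**Figure D4:**
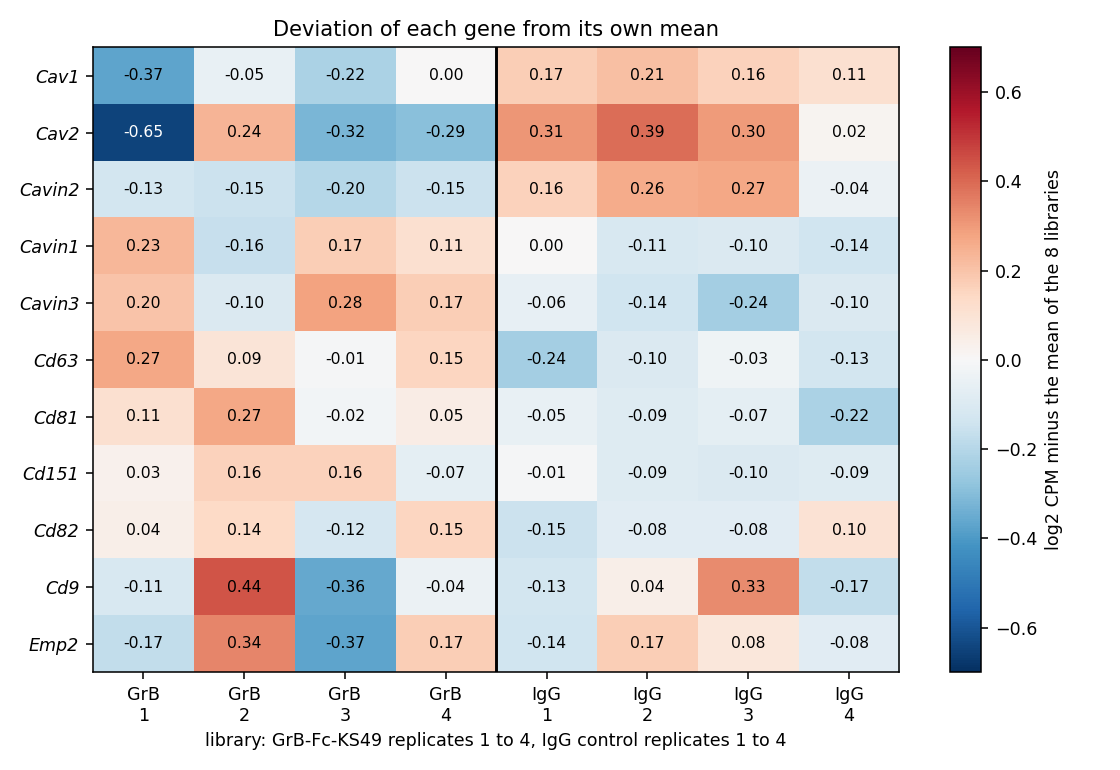
Log2 CPM of each member and of Emp2 minus its mean over the 8 libraries, GrB-Fc-KS49 replicates left of the line and IgG controls right of it; red is above and blue below the gene's mean. Cav1 and Cav2 are lowest in GrB-Fc-KS49 replicate 1, at -0.37 and -0.65, while Cd9 and Emp2 are both highest in replicate 2, at 0.44 and 0.34, and lowest in replicate 3, at -0.36 and -0.37.

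Emp2, the transcript of the protein that the agent is directed to, was at 119, 169, 103 and 150.0 CPM in the GrB-Fc-KS49 tumours, against 120.7, 150.2, 141 and 126.5 CPM in the IgG controls. The groups overlapped, with a log2 fold change of 0.01. Of its relatives, Emp1 had a log2 fold change of -0.42 (edgeR unadjusted p = 0.0162), Emp3 one of 0.20 (unadjusted p = 0.0258) and Pmp22 one of -0.22 (unadjusted p = 0.123). With length and GC trends removed Emp3 turned to -0.10 (unadjusted p = 0.249) and Pmp22 was at -0.39 (unadjusted p = 0.0206).

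The wider tetraspanin family held more genes with higher than with lower means. Among those tested, 18 log2 fold changes were positive and 6 negative, against 53.2% positive over all genes. Their median was 0.19, against 0.03 over all genes. With length and GC trends removed it was 0.08, against -0.06 over all genes. Of 26 other tetraspanins 25 were in the table and 24 were tested, with 6 higher and 1 lower at an unadjusted edgeR p under 0.05 and 0 adjusted, against 17.3% and 17.8% of all genes. Tspan4, a tetraspanin of migrating cells, was at 118, 98.2, 114 and 98.6 CPM in the GrB-Fc-KS49 tumours, against 84.0, 91.4, 83.0 and 82.3 CPM in the IgG controls, with no overlap and a log2 fold change of 0.33 (edgeR unadjusted p = 0.00316), but 0.04 once length and GC trends were removed. Tspan33, Tspan32 and Cd37, known from lymphoid and other blood cells, had log2 fold changes of 1.85, 1.65 and 0.59. Tspan33 and Tspan32 averaged only 0.274 and 0.172 CPM in IgG controls. Without GrB-Fc-KS49 replicates 1 and 2 the fold changes of these genes were 0.79, 0.41 and 0.33 (edgeR unadjusted p = 0.12, 0.373 and 0.208). All 3 were highest in GrB-Fc-KS49 replicate 1, where Tspan33 was at 1.83 CPM, Tspan32 at 1.15 CPM and Cd37 at 18.7 CPM, and T cell markers were at their highest sum there too. Cd53, also known from blood cells, was more abundant than those 3, with means of 58.8 CPM (treated) and 60.0 CPM (control). Cd53 showed a log2 fold change of -0.03 (edgeR unadjusted p = 0.872). With treated replicates 1 and 2 left out this became -0.39 (unadjusted p = 0.00258). Rom1 (0.47) and Tspan13 (0.50) were the other higher genes and Tspan2 (-0.51) the lower gene. With those trends removed 2 were higher, Tspan33 (1.55) and Tspan32, and 1 lower, Tspan31 (-0.33).

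Among 8 partners of tetraspanins 1 was higher and 2 lower at an unadjusted edgeR p under 0.05, near the 35.1% of all genes in either direction, and 0 adjusted. Igsf8, an immunoglobulin-family protein that binds CD81 and CD9, was at 105.5, 86.3, 75.5 and 80.7 CPM in the GrB-Fc-KS49 tumours, against 62.7, 63.5, 64.4 and 65.5 CPM in the IgG controls. Every treated tumour lay above every control. Its log2 fold change was 0.44 with an SE of 0.10 (edgeR unadjusted p = 0.0021, adjusted p = 0.0619), and 0.26 with the length and GC trends removed. The metalloprotease Adam10 was at 93.7, 123, 108.5 and 112 CPM in the GrB-Fc-KS49 tumours, against 141, 145, 136 and 125 CPM in the IgG controls, with a log2 fold change of -0.32 (edgeR unadjusted p = 0.0073). Itgb1, the integrin beta 1 chain, averaged 1118.5 ± 211 CPM in the GrB-Fc-KS49 tumours and 1458 ± 78.8 CPM in the IgG controls (SD, n = 4 each), with a log2 fold change of -0.38 (edgeR unadjusted p = 0.0211). Itga6, a partner of CD151, had a log2 fold change of -0.38 and the CD9 partner Ptgfrn of -0.31, both above that threshold.

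**Figure D5:**
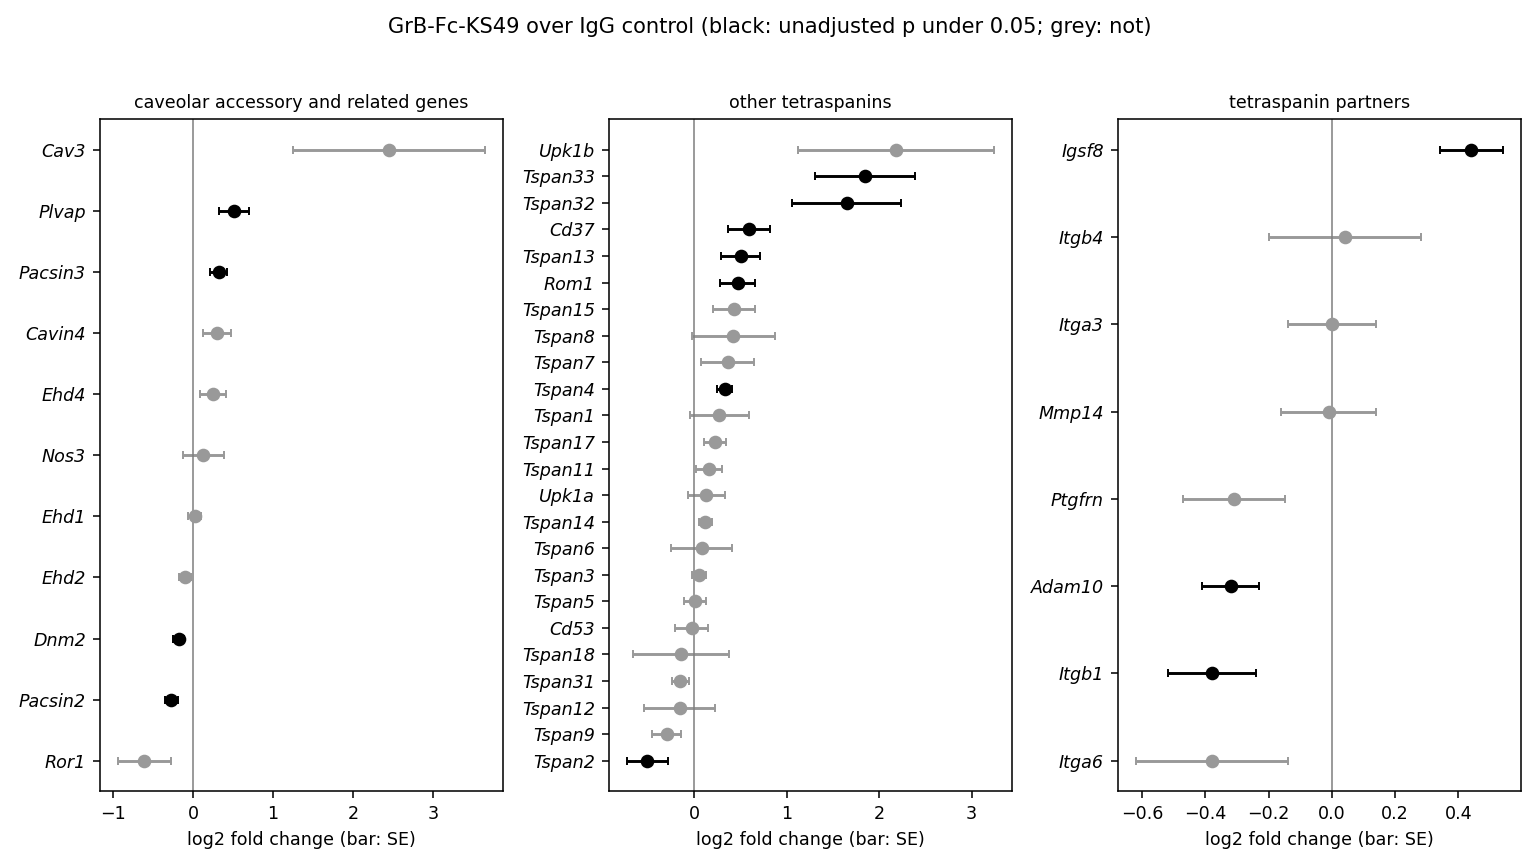
Log2 fold change, GrB-Fc-KS49 over IgG control, of the tested caveolar accessory genes, other tetraspanins and tetraspanin partners; bars are the SE, black points have an unadjusted edgeR p under 0.05 and grey ones do not, and the axes differ in range. Igsf8, at 0.44, is the only black point above 0 among the partners, and Adam10 and Itgb1 lie at -0.32 and -0.38.

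Opposite-strand genes overlap 6 of the members (Cavin1, Cavin2, Cavin3, Cd9, Cd81 and Cd151), and the labels do not say whether counting used strand. The overlapping genes averaged at most 2.53 CPM, against 86.6 CPM or more for those members.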

How the data were processed

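Libraries of 8 tumours were made with a KAPA stranded mRNA kit, per the labels' protocols. The submitters' processing notes name bcl2fastq 2.19.1.403, STAR and the build GRCm39; the quantifier and the use of strand are not stated in the sources used here. Estimated counts per gene were deposited by the authors, with 46.0% to 47.8% whole numbers per library. The deposited CPM were made from the same counts after adding 0.0001 count. No per-sample column was left unused. Gene coordinates are those of the deposited table, 1-based, with its stop, which lies 1 base past the end, corrected.

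Estimated counts were rounded. Genes were kept by edgeR's filterByExpr (19718 of 26709), scaled by TMM and tested by edgeR 4.0.16 robust quasi-likelihood F tests (R 4.3.3), with Benjamini-Hochberg adjustment over all genes and a threshold of 0.05. The SE is the size of the log2 fold change divided by the square root of F. The biological coefficient of variation was 27.8%. Alternatives were other scalings and filters, DESeq2 1.42.0, limma 3.58.1 (voom with and without sample weights, and log2 of the deposited CPM plus 1 or 0.25), each library left out, the U suffix left out or as a covariate, and removal of length and GC trends (mgcv 1.9.3). Transcript lengths and GC are those of the longest protein-coding transcript in GENCODE M21 (GRCm38). Ratios were compared by exact permutation.

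The rule for named genes took all 10 members, up to 5 genes per pathway list by smallest unadjusted p plus every gene that a count of 5 or fewer refers to, the 3 genes nearest Cav1 and Cd9, and marker lists by summed CPM. The members and lists were chosen with earlier results of these data known.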

Additional observations from a re-analysis of the deposited data

Results flagged for a closer look

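Of 28 groups of 4 libraries checked for a value far from the other 3, 1 stood out. Cd151 was at 85.9 CPM in IgG control replicate 1, against 80.7 to 81.3 CPM in the other IgG controls, a gap of 0.895 of the group's range, above Dixon's 95% critical value for 4 samples. Chance marks about 1 in 20 such groups.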

How the results depend on the processing

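At an adjusted p under 0.05, DESeq2 called 4708 genes, limma-voom 1 and limma-voom with sample weights 1291, against 0 by edgeR, and edgeR with 1 library left out called 0 to 3447. Among members, DESeq2 called Cav1 (adjusted p = 0.0163), Cavin2 (0.0049), Cavin3 (0.0324) and Cd63 (0.0181), against 23.9% of all genes. Without GrB-Fc-KS49 replicate 4 edgeR called Cav1 (adjusted p = 0.0353) and Cavin2 (0.0447), against 3447 genes or 17.1% of all genes. Removal of length and GC trends left 3 members at an unadjusted p under 0.05 and 2 whose groups did not overlap (28.0% and 17.7% of all genes), and reversed Cd81 (-0.0175), Cd82 (-0.1359) and Cd151 (-0.0891). Without GrB-Fc-KS49 replicates 1 and 2, added after the data were seen, 7 members did not overlap (34.4% of all genes), and with 1 library left out 4 to 7, the highest without GrB-Fc-KS49 replicate 2 (31.0% of all genes). The log2 fold change of Cd9 was 0.0365 with upper quartile scaling, 0.0038 with total counts, 0.03 at a mean of at least 1 CPM, 0.0181 with sample weights, 0.0341 without both U libraries, and -0.1817 to 0.0855 with 1 library left out. The Cavin1 to Cav1 difference was 0.477 without both U libraries (exact permutation p = 0.1, the smallest that 3 against 3 allow) and 0.38 to 0.62 with 1 library left out (exact permutation p = 0.0571 without any 1 IgG control). The Cavin2 to Cav1 difference was -0.0043 without both U libraries and -0.0744 to 0.055 with 1 left out. Of genes at an unadjusted p under 0.05, 49.2% were higher by the main analysis, 61.4% with upper quartile scaling and 33.1% without the length and GC trends. The causes were not tested. No paired analysis was possible because the replicate numbers only name the libraries.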

Other observations

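Flotillins and their SPFH relatives scaffold other membrane domains. Of 5 genes, Flot1 was higher (log2 fold change 0.25) and Erlin1 (-0.35) and Erlin2 (-0.29) lower at an unadjusted edgeR p under 0.05, against 17.3% and 17.8% of all genes, and 0 passed the adjusted test. With length and GC trends removed Flot1 turned to -0.03 (unadjusted p = 0.67), Erlin1 was at -0.34 and Erlin2 at -0.18 (unadjusted p = 0.0856). Erlin1 was at 53.5, 75.7, 51.7 and 71.5 CPM in the GrB-Fc-KS49 tumours, against 77.7, 84.9, 82.6 and 75.8 CPM in IgG controls, so that replicate 2 of the treated tumours came nearest to the control range.

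Of 6 genes of extracellular vesicle biogenesis 0 were higher and 2 lower at an unadjusted edgeR p under 0.05, against 17.3% and 17.8% of all genes. Rab27b, a small GTPase that docks secretory vesicles, was at 11.1, 17.5, 17.5 and 17.0 CPM in the GrB-Fc-KS49 tumours, against 24.2, 23.1, 28.3 and 20.1 CPM in IgG controls, with no overlap and a log2 fold change of -0.60 (edgeR unadjusted p = 0.00596), or -0.45 with length and GC trends removed. Pdcd6ip, which encodes the ESCRT-linked protein ALIX, had a log2 fold change of -0.20 (edgeR unadjusted p = 0.0338), or -0.04 with those trends removed (unadjusted p = 0.572). Hgs was at -0.13 (edgeR unadjusted p = 0.111), or -0.29 with those trends removed (unadjusted p = 0.0152). After the removal 2 of the 6 genes were thus lower, Rab27b and Hgs, against 18.7% of all genes.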
